A study of Mus musculus with 9 samples.

Results

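The heat shock response genes were followed in RNAseq of mRNA captured by phospho-S6 immunoprecipitation (pS6-IP) from the mouse olfactory epithelium (OE). The members are 10 listed genes, Hspa1a, Hspa1b, Hspa8, Hsph1, Hspb1, Dnajb1, Hsp90aa1, Hspe1, Hspd1 and Bag3, taken by symbol from tables of 23607 genes, and all 10 were found there. The samples are 9 C57BL/6 mice, 3 controls exposed to distilled water, 3 exposed to 1% heptanal and 3 exposed to 100% heptanal, an aldehyde odorant, each for 1 hr. Each group holds 1 mouse of postnatal day 22 (replicate 1), 1 of day 21 (replicate 2) and 1 of day 18 (replicate 3). According to the methods, mice of a replication were littermates of the same sex. Each mouse was alone in a closed container for a rest before the exposure and again during it, so all 3 groups share this handling. Postnatal day and litter cannot be told apart here, and each day has 1 mouse per group. The sample names of day 22 begin with YJC and those of days 21 and 18 with YJE. What these letters mark is not stated, so a difference of day 22 cannot be told apart from it either. The antibody binds ribosomes whose protein S6 is phosphorylated, which happens in olfactory sensory neurons (OSNs) that an odorant has activated, but it is not restricted to neurons.

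The products of these genes are molecular chaperones and their partners. Heat shock factor 1 (HSF1) is the transcription factor that raises most of them when proteins unfold, by binding short repeated GAA and TTC units near their promoters. HSP70 proteins hold unfolded chains, HSP40 partners hand clients to HSP70 and start its ATP cycle, nucleotide exchange factors reset it, HSP90 matures signalling proteins, small heat shock proteins keep unfolding proteins soluble, and HSP60 with its lid HSP10 folds proteins inside mitochondria. Inducible HSP70 and HSP40 are also used as markers of stressed or strongly stimulated cells, alongside immediate early genes such as Fos.

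The promoters of the listed genes show where this factor could bind. RefSeq promoter windows on GRCm38.p6, from 250 bases before to 50 bases after each transcription start, were at hand for 8 of the 10 members (not for Hspa8 and Hsp90aa1). They were searched on both strands for 2 units (GAANNTTC or TTCNNGAA) and for 3 units (GAANNTTCNNGAA or TTCNNGAANNTTC), so that each run of 3 also counts as 2. Of the 8 members, 7 held 2 units and 3 held 3 units, while 17% and 0.662% of all genes in the table did. Dnajb1 held neither, which says only that these letters are absent from this window. Shown are 1 or 2 sites of each of the 7 members, on the strand of the gene, with the matched units in capitals and 6 flanking bases where the window holds them. Further matches that overlap those printed are left out.

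Hspa1a, chr17:34972247-34972266, minus strand: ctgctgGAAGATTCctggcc

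Hspa1b, chr17:34959329-34959348, minus strand: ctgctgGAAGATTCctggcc

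Hspb1, chr5:135887796-135887815, plus strand: acaagaGAAGTTTCcagatg

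Hspb1, chr5:135887816-135887835, plus strand: ggggcaGAACCTTCctggcc

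Hsph1, chr5:149636282-149636306, minus strand: tgcagaTTCTGGAAAGTTCtcctca

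Hsph1, chr5:149636356-149636375, minus strand: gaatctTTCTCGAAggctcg

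Bag3, chr7:128523619-128523632, plus strand: ggaccaGAAGTTTC

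Hspe1, chr1:55088058-55088082, plus strand: gttctaGAACCTTCCGGAAggcccc

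Hspd1, chr1:55088058-55088082, minus strand: ggggccTTCCGGAAGGTTCtagaac

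The Hspa1a and Hspa1b sites have the same letters over these 20 bases, each beginning 104 bases before its own start. The Hspe1 and Hspd1 entries are the same piece of DNA read on opposite strands, since these genes are transcribed away from a common promoter on chromosome 1. In Hsph1 the 3 units lie just after a transcription start and the 2 units before it, and the Bag3 match lies at the last bases of its window, after the start. A match of letters is a description of the sequence and not a measured binding site.

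The estimated counts summed to between 5438501 and 9707581 per mouse, with a median of 7305886, and 14930 genes passed the filter on low counts. Of the 10 members, 9 passed it and Hspa1b did not. Levels are given as CPM (counts scaled to the size of each library) after TMM scaling, listed for postnatal days 22, 21 and 18 in turn. Fits used edgeR's quasi-likelihood test with postnatal day as a block and Benjamini-Hochberg adjustment over all 14930 genes, and a gene was called at an adjusted p below 0.05. Reads carried no molecular identifiers, so limits drawn from counts cover counting error and not the PCR.

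No member was called at either concentration. At 100% heptanal 0 of the 9 members tested passed against the control, where 48 genes (0.322% of those tested) passed upwards and 0 passed downwards. At an unadjusted p below 0.05, 3 of the 9 were higher (Hspa1a, Dnajb1 and Hspb1, of which the latter 2 turned below 0 with scaling by OSN markers) and 0 lower, beside 6.64% and 3.79% of all genes. With other tools on the same counts, edgeR's likelihood ratio test called 1 member (Hspa1a) and DESeq2 called 1 (Dnajb1). The median log2 fold change of the 9 members was 0.30 and that of all genes tested -0.00, and 8 of the 9 lay above 0, as did 49.7% of all genes. At 1% heptanal 0 members and 0 genes in all passed against the control, and 0 members had an unadjusted p below 0.05, beside 1.32% of all genes upwards and 1.94% downwards. The paper, which used edgeR with a design it does not state, reports olfactory receptor mRNAs enriched at both concentrations at the same threshold. The number of genes called in all depends on the fit, and so does the lack of member calls at 100% heptanal. At 1% heptanal the likelihood ratio test and DESeq2 also called 0 members. With 3 mice per group, this does not show that the members were at the level of the control.

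**Figure D1:**
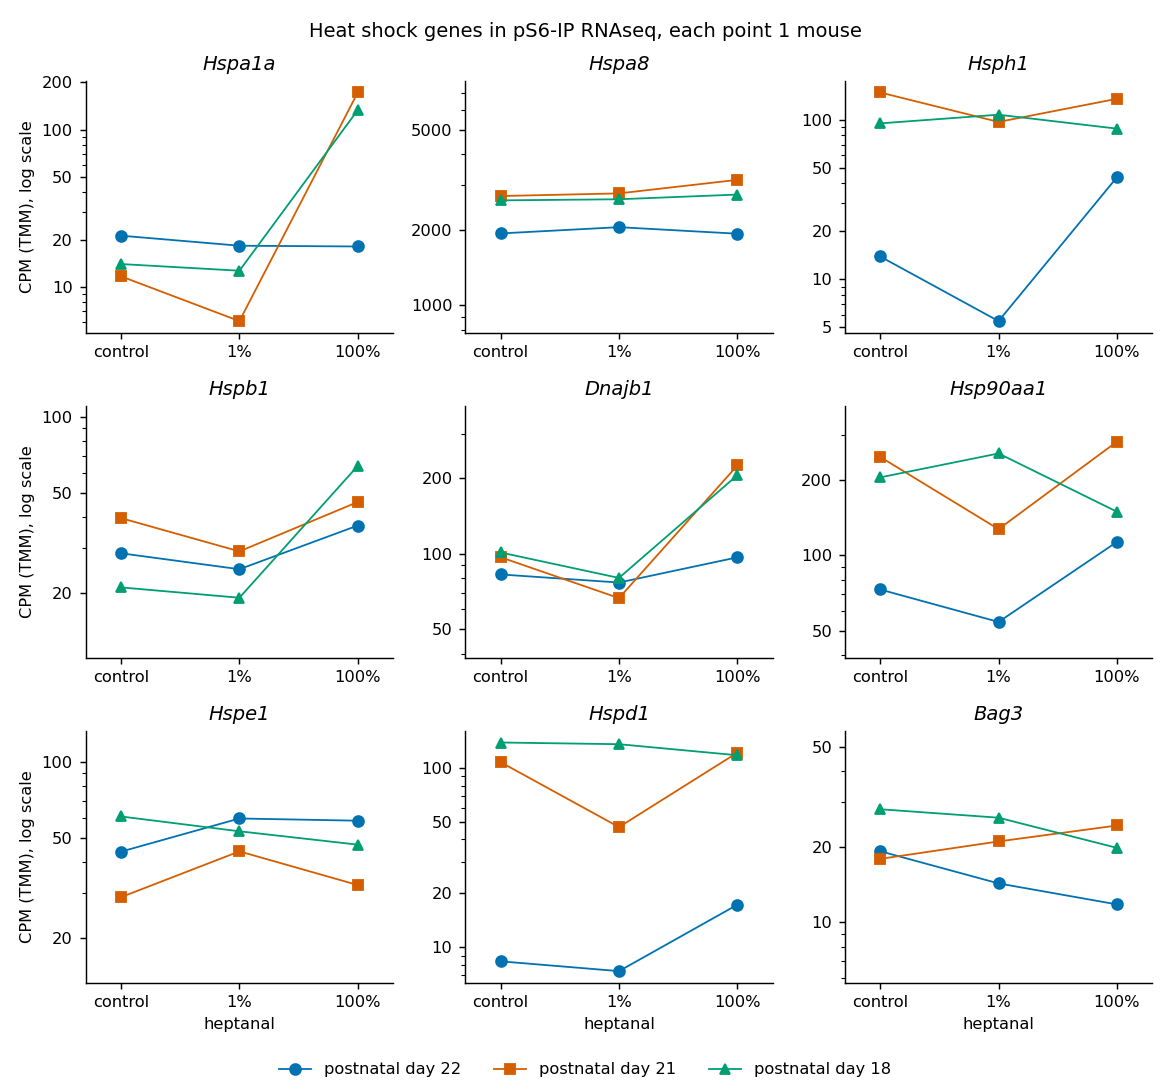
Level of the 9 members tested in each mouse, as CPM after TMM scaling on a log axis, against the exposure on the x axis (control, 1% and 100% heptanal). Each point is 1 mouse and lines join the 3 mice of 1 postnatal day. Hspa1a stayed near 18 CPM in the mouse of day 22 at 100% heptanal and reached 172 and 133 CPM at days 21 and 18, while Hsph1, Hspd1 and Hsp90aa1 were lowest in the mice of day 22 at every exposure.

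Hspa1a, which encodes stress-inducible HSP70, had the largest fitted value of the members at 100% heptanal, which came from 2 of 3 postnatal days. It lies on chromosome 17 of GRCm38 from 34969190 to 34972156 on the minus strand and was at 21.2, 11.7 and 14 CPM in the controls. At 1% heptanal it was at 18.3, 6.08 and 12.7 CPM, and at 100% heptanal at 18.1, 172 and 133 CPM. The mice of days 21 and 18 at 100% heptanal lay far above every control mouse, whereas the mouse of day 22 lay within the range of the controls. The ratio of 100% heptanal to control within a day was thus 0.851, 14.7 and 9.45. In counts, the mouse of day 21 had 1228 at 100% heptanal and 83 as control, so counting error is small beside these ratios.

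The fitted log2 fold change of Hspa1a at 100% heptanal was 2.74 (standard error, SE, 0.79, 95% interval 0.96 to 4.53), with an unadjusted p of 0.00709 and an adjusted p of 0.249 by edgeR. A larger fitted value was found for 49 genes (0.328% of those tested), and a lower unadjusted p by edgeR for 422 (2.83%). Without the mouse of day 22 at 100% heptanal the log2 fold change was 3.63 with an adjusted p of 0.00438 by edgeR, past the threshold, and without the corresponding mouse of day 21 it was 1.72. Leaving out all 3 mice of day 22 gave 3.58 with an adjusted p of 0.0361 by edgeR, whereas leaving out all 3 of day 21 gave 1.84 with 0.751 and all 3 of day 18 gave 2.42 with 0.602. Over all alternatives the adjusted p ran from 0.00438 to 0.775. Against 1% heptanal the log2 fold change was 3.07 (SE 0.81, adjusted p = 0.277 by edgeR).

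Among unique reads alone Hspa1a gave much the same picture at days 21 and 18. Counts of reads that mapped to 1 place were 46, 27 and 35 in control mice, 52, 17 and 48 at 1% heptanal and 75, 466 and 442 at 100% heptanal. The mice of days 21 and 18 at 100% heptanal again stood far above the other 7. That of day 22 did not, but its 75 of 6666631 unique reads lay above the 46 of 4735067 in its own control. As a share of unique reads it also lay above every other control and every 1% heptanal mouse. On estimated counts the ratio of the day 22 mouse to its own control was 0.851, so the direction at day 22 turned. Fitted on unique counts, the log2 fold change at 100% heptanal was 2.97 (SE 0.74, adjusted p = 0.188 by edgeR).

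Hspa1b, the near-identical copy of Hspa1a, was almost without counts. It lies 9951 bases away, from 34956436 to 34959238 on the same strand, and its coding sequence matches that of Hspa1a at 1915 of 1926 aligned bases (99.4%). It had 3 estimated counts in the control of day 21, 1 of them unique, and 0 counts in the other 8 mice, where 3 counts would be 0.309 to 0.552 CPM. Over the 9 mice Hspa1a had 1208 unique counts and Hspa1b had 1. Of the 50-base windows of their transcripts, the length of the reads, 39.7% of those of Hspa1a and 37.7% of those of Hspa1b occur at 1 place in GRCm38, and in the last 500 bases of both all 451 windows do. Unique reads could thus have been told apart at the 3′ ends of both transcripts. The gene models the authors counted on were not analysed here, so how reads of the pair were split between the copies is uncertain. With both copies added together, 0 members were called in each comparison, as before.

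Dnajb1, an HSP40 that serves HSP70, showed the same order of days as Hspa1a with a smaller difference, on the TMM scale. It lies on chromosome 8 from 83608193 to 83612653, and 99.4% of its counts were unique. Its level was 82.6, 96.7 and 101 CPM in the controls, 76.7, 66.5 and 80 CPM at 1% heptanal and 96.6, 224 and 205 CPM at 100% heptanal. At 100% heptanal the mice of days 21 and 18 were above every control, and that of day 22 was above its own control but within the range of the controls. The ratios within a day were 1.17, 2.31 and 2.02. The fitted log2 fold change was 0.86 (SE 0.24, 95% interval 0.31 to 1.40, unadjusted p = 0.00611, adjusted p = 0.241 by edgeR). DESeq2 gave 0.85 with an adjusted p of 0.0492, and over all alternatives the adjusted p ran from 0.0492 to 0.962.

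At 1% heptanal Dnajb1 was lower than the control of the same day in 3 of 3 days, and the 1% heptanal mice (66.5 to 80 CPM) did not overlap the controls (82.6 to 101 CPM). It was the 1 member of 9 without overlap downwards, beside 1.64% of all genes, and 0 members were free of overlap upwards, beside 2.28%. The log2 fold change was -0.31 (SE 0.24, unadjusted p = 0.226, adjusted p = 1 by edgeR), so the difference did not pass the test. Against 1% heptanal, the 100% heptanal mice were higher without overlap, at a log2 fold change of 1.17 (SE 0.24, adjusted p = 0.178 by edgeR). That adjusted p was 0.00088 with DESeq2, and without the 100% heptanal mouse of day 22 Dnajb1 was called as well, at 1.50.

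Hspb1, the small heat shock protein HSP27, was higher at 100% heptanal in all 3 days with TMM scaling, and its fitted value turned to -0.27 with scaling by OSN markers. Its level was 28.7, 39.6 and 21 CPM in the controls, 24.8, 29.2 and 19.1 CPM at 1% heptanal and 37, 45.9 and 63.9 CPM at 100% heptanal. The groups overlapped for 100% heptanal against control, since the control of day 21 lay above the exposed mouse of day 22, and 0 of the 9 members were free of overlap there, beside 5.97% of all genes upwards and 3.55% downwards. The ratios within a day were 1.29, 1.16 and 3.05, largest at day 18. The fitted log2 fold change was 0.75 (SE 0.28, 95% interval 0.11 to 1.40, unadjusted p = 0.0272, adjusted p = 0.398 by edgeR), and 0.32 without the 100% heptanal mouse of day 18. Only 28 of its 2374 counts over the 9 mice were unique (1.18%), although 42.3% of its 50-base windows occur at 1 place and the rest at 2. Its values are thus uncertain, because they rest on reads that the authors shared out between places, and its unique counts were too few to be tested.

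At 100% heptanal 2 of the 9 members (Dnajb1 and Hspb1) were higher than the control in all 3 days, as were 18.4% of all genes. At 1% heptanal 4 of the 9 (Hspa1a, Hspb1, Dnajb1 and Hspd1) were lower in all 3 days, beside 11.7% of all genes, and their fitted log2 fold changes lay between -0.28 and -0.46 with an adjusted p of 1 each by edgeR. The median of the 9 members at 1% heptanal was -0.29 and that of all genes -0.01. For Hspa1a, that direction turned with unique counts, where the log2 fold change was 0.02. Between the concentrations, Hspa1a, Dnajb1, Hspb1 and Hspd1 (4 of 9) were higher at 100% than at 1% heptanal at an unadjusted p below 0.05, beside 6.74% of all genes, 0 were lower, beside 3.68%, and the median of the 9 was 0.76 against 0.02 for all genes. Of the 9, 0 were called there by edgeR's quasi-likelihood test, where 12 genes (0.0804%) passed upwards, and the likelihood ratio test and DESeq2 each called 2 (Hspa1a and Dnajb1). Dnajb1 and Hspb1 were higher in all 3 days there, beside 16.9% of all genes, and also without overlap of the groups, beside 4.73%. Hspe1 was lower in all 3 days, beside 15.6%, and 0 members were lower without overlap, beside 4.15%.

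**Figure D2:**
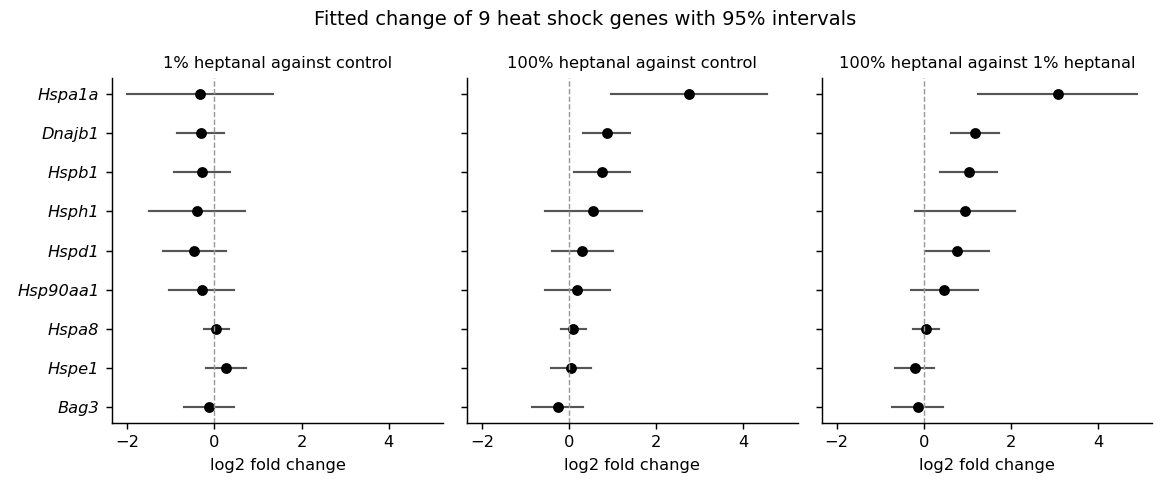
Fitted log2 fold change of the 9 members tested in the 3 comparisons, from 1 edgeR fit with postnatal day as a block and TMM scaling. Points are estimates from 9 mice and bars are 95% intervals. At 100% heptanal against control the intervals of Hspa1a, Dnajb1 and Hspb1 lie above 0 before adjustment for multiple tests, and with scaling by OSN markers the estimates of Dnajb1 and Hspb1 are -0.18 and -0.27.

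Hspa8, the constitutive HSP70 of unstressed cells, had the highest estimated level per length of the members. This rank is uncertain, since 3853 of its 172895 counts over the 9 mice were unique and the rest were shared out between places. Its values at 100% heptanal were near the controls with TMM scaling. With scaling by OSN markers it was called lower (-0.94, adjusted p = 0.00498 by edgeR), as were 9698 genes in all. Per kilobase of transcript it was at 1012 ± 179 CPM in the controls (SD, n = 3), whereas the other 8 tested lay between 5.27 ± 1.67 (Hspa1a) and 57.6 ± 20.4 (Hspe1). From high to low the order was Hspe1, Hsp90aa1, Hspd1, Hspb1, Dnajb1, Hsph1, Bag3 and Hspa1a, and each of these overlapped its neighbours within 1 SD. Whether counts grow with length in these poly-T primed libraries was not tested. Without division by length Hspa8 was still highest (mean 2423 CPM in the controls). Hspe1 (44.6) was then below Hsp90aa1 (174), Dnajb1 (93.6), Hsph1 (86.1) and Hspd1 (85.3). At 100% heptanal Hspa1a stood at 36.3 ± 27 CPM per kilobase. The level of Hspa8 was 1933, 2722 and 2616 CPM in the controls, while the exposed mice had 1928, 3157 and 2759 CPM at 100% heptanal, a log2 fold change of 0.10 (95% interval -0.19 to 0.39, adjusted p = 0.851 by edgeR). At 1% heptanal, at 2047, 2789 and 2643 CPM, Hspa8 was the 1 member of 9 above the control in all 3 days, beside 11.5% of all genes, and its fitted value there turned to -0.21 with scaling by OSN markers. Of its counts 2.23% were thus unique, and of its 50-base windows 21.4% occur at 1 place, with up to 9 places for the others. On the unique counts its log2 fold change was 0.16 (SE 0.14, adjusted p = 0.745 by edgeR).

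Hsph1, an HSP110 that exchanges nucleotide on HSP70, varied more between days than between exposures. All of its counts were unique. It was at 13.9, 149 and 95.3 CPM in the controls, 5.46, 97.3 and 108 CPM at 1% heptanal and 43.7, 136 and 88.3 CPM at 100% heptanal. Each mouse of day 22 lay below all mice of the other days. Within days, 100% heptanal was 3.13, 0.914 and 0.926 times the control. Hsph1 was thus higher at day 22, the day at which Hspa1a was not on estimated counts. The fitted log2 fold change of 0.55 (SE 0.49, adjusted p = 0.752 by edgeR) turned to -0.13 without day 22.

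Bag3, a co-chaperone that links HSP70 to autophagy, was the 1 member of 9 with a fitted value below 0 at 100% heptanal. Its level was 19.2, 17.9 and 28.2 CPM in the controls, 14.3, 21 and 26.1 CPM at 1% heptanal and 11.8, 24.3 and 19.8 CPM at 100% heptanal. The groups overlapped throughout. Its log2 fold change was -0.26 (95% interval -0.84 to 0.32, adjusted p = 0.786 by edgeR), and 97.2% of its counts were unique.

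Hsp90aa1, the stress-inducible cytosolic HSP90, was at 73.1, 246 and 204 CPM in the controls, 54.3, 127 and 254 CPM at 1% heptanal and 113, 283 and 149 CPM at 100% heptanal. As with Hsph1, its lowest values in each group were those of day 22. The groups overlapped, the log2 fold change at 100% heptanal being 0.18 (95% interval -0.56 to 0.93, adjusted p = 0.905 by edgeR) and -0.07 without day 22. Only 59 of its 11831 counts were unique (0.499%), although 93.8% of the windows in the last 500 bases of its transcript occur at 1 place, so these values are uncertain.

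The mitochondrial pair showed 2 different patterns. Hspd1, which encodes HSP60, was at 8.36, 108 and 139 CPM in the controls, 7.37, 46.9 and 136 CPM at 1% heptanal and 17.3, 122 and 118 CPM at 100% heptanal, with day 22 again lowest in every group. Its log2 fold change at 100% heptanal was 0.30 (95% interval -0.40 to 1.01, adjusted p = 0.796 by edgeR) and -0.01 without day 22. Hspe1, the HSP10 partner, was at 44, 29 and 60.7 CPM in the controls, 59.6, 44.1 and 53 CPM at 1% heptanal and 58.4, 32.4 and 46.9 CPM at 100% heptanal. Its mice of day 22 were not low, and its log2 fold change was 0.05 (95% interval -0.41 to 0.51, adjusted p = 0.962 by edgeR). The genes start next to each other on opposite strands of chromosome 1, Hspd1 from 55077835 to 55088243 and Hspe1 from 55088132 to 55091307, and share the site printed above. Unique reads made up 0.985% of the counts of Hspd1 and 13.3% of those of Hspe1, so both are uncertain.

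**Figure D3:**
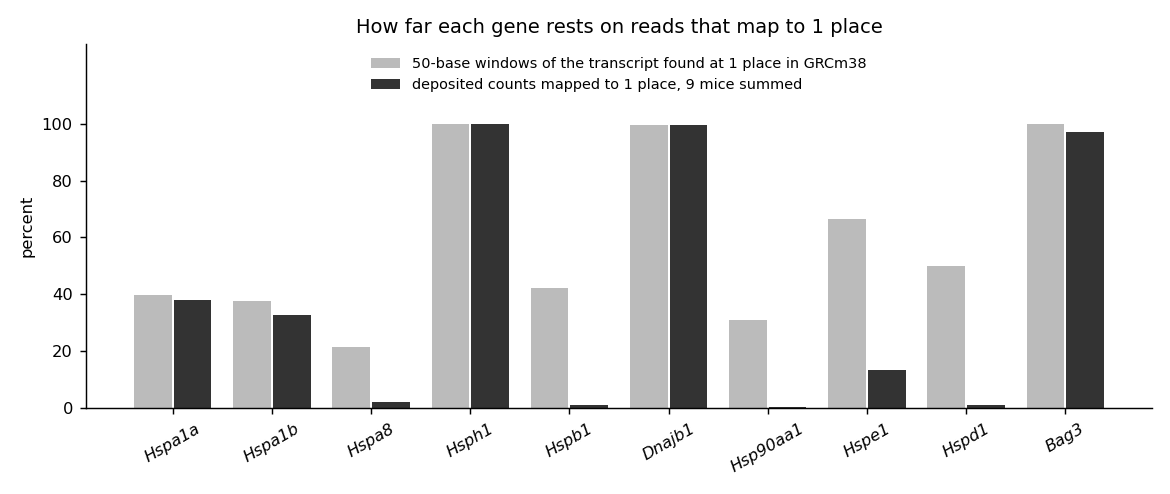
Share of each member's deposited estimated counts that came from reads mapped to 1 place, summed over 9 mice (dark bars), beside the share of 50-base windows of its transcript that occur at 1 place in GRCm38 (grey bars), both in percent. Hsph1, Dnajb1 and Bag3 rest almost fully on unique reads, while Hspa8, Hspb1, Hsp90aa1 and Hspd1 have under 3% unique counts, and the bars of Hspa1b stand for 3 counts only.

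The immediate early genes Fosb, Egr1 and Fos were higher at 100% heptanal in each of the 3 days, as were 18.4% of all genes. Of 11 genes of this kind, which neurons switch on within minutes of activity, 4 (Fosb, Egr1, Fos and Nr4a1, the latter named after its value was seen) were called higher at 100% heptanal, beside 0.322% of all genes. At an unadjusted p below 0.05, 10 of the 11 were higher, beside 6.64% of all genes, and the list median was 0.99. Fosb was at 3.87, 2.4 and 1.77 CPM in control mice, rising to 88.9, 95.6 and 67.1 CPM with 100% heptanal, and the ratios within a day were 23, 39.9 and 37.9. For Fos the ratios were 6.54, 7.97 and 5.7, and for Egr1 8.29, 9.82 and 6.34. The log2 fold changes of these transcription factor genes were 4.98, 2.72 and 2.98, with adjusted p of 0.00135, 0.00677 and 0.00135 by edgeR. The mouse of day 22 thus had Fosb, Egr1 and Fos above its control, as did the other 2 exposed mice. Its Hspa1a was within the range of the controls on estimated counts. Fosb, Egr1 and Fos were named for their low p in a fit over all 3 days, so their likeness between days follows in part from that choice. Summed over all 11 genes, the level was 2.96, 3.93 and 3.59 times the control within days 22, 21 and 18, smallest at day 22. The difference in Hspa1a between days was not tested, since each day has 1 mouse per group.

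**Figure D4:**
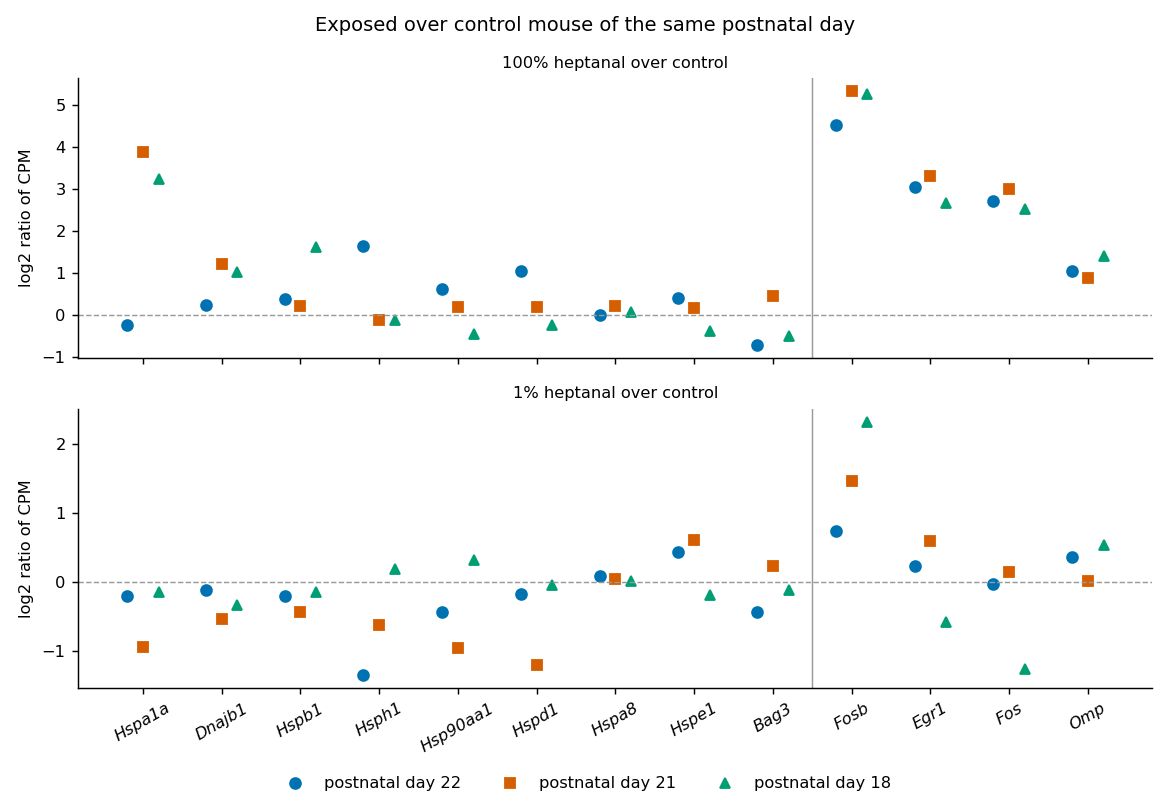
Log2 ratio of the CPM of an exposed mouse to that of the control mouse of the same postnatal day, for the 9 members tested and, right of the line, for Fosb, Egr1, Fos and Omp, at 100% (top) and 1% heptanal (bottom). Each point is 1 pair of mice. At 100% heptanal Fosb, Egr1 and Fos lie between 2.51 and 5.32 in all 3 days, whereas Hspa1a is at -0.23, 3.88 and 3.24 for days 22, 21 and 18.

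Other genes of the chaperone network were tested in lists. At an unadjusted p below 0.05 by edgeR, 6.64% of all genes were higher and 3.79% lower at 100% heptanal. The counts of each list stand beside these shares. Of the 24 other genes of the HSP70 system 0 were called at 100% heptanal by edgeR, with a median log2 fold change of 0.12, and 2 were higher at an unadjusted p below 0.05. The latter included Dnaja1, another HSP40, at 169, 290 and 338 CPM in control mice, against 218, 385 and 403 CPM at 100% heptanal (log2 fold change 0.34, adjusted p = 0.406 by edgeR), and Dnajb2, named here after its value was seen, at 0.53. Stub1, a ubiquitin ligase that works with HSP70, was at 0.15. Among 12 genes of the HSP90 machinery, 0 were called and 0 had an unadjusted p below 0.05 (median 0.13), with Hsp90ab1, the constitutive HSP90, at 0.24 and its co-chaperone Fkbp4 at -0.02. For the 7 of 9 other small heat shock protein genes that were tested the counts were 0 and 0 (median 0.26), with Cryab at 0.22 and Hspb8 at 0.19.

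In the lists further from HSP70 and HSP90, too, 0 genes were called at 100% heptanal by edgeR, which with 3 mice per group does not show that they were at the level of the control. The 10 mitochondrial chaperones and proteases had a median of -0.03 with Grpel1 at -0.00 and Lonp1 at -0.10. Of them 1, Trap1, named after its value was seen, was lower at an unadjusted p below 0.05 (-0.70). Trap1 was lower in all 3 days, as were 18.1% of all genes. The 13 genes tested of the cytosolic chaperonin and prefoldin had a median of -0.04 with 0 at an unadjusted p below 0.05, and Cct7 and Cct5 were at -0.07 and -0.04. Of 3 heat shock factor genes tested, 0 had an unadjusted p below 0.05, and Hsf1 itself was at 21.7, 26.2 and 30.7 CPM in control mice, against 30.4, 31.1 and 32.6 CPM at 100% heptanal (log2 fold change 0.27, adjusted p = 0.668 by edgeR), with its inhibitor Hsbp1 at 0.28 and Hsf2, named after its value was seen, at -0.62 (list median 0.27). Of 7 other HSF1 targets, 1 (Zfand2a, at 0.36, named after its value was seen) was higher at an unadjusted p below 0.05, the list median was 0.04, and the ubiquitin gene Ubb was at 0.15. The 13 chaperones of the endoplasmic reticulum had a median of -0.23, with Hspa5 (BiP) at -0.26 and Hsp90b1 at -0.11, and 1 of them, Pdia6, named likewise, was lower at an unadjusted p below 0.05 (-0.30).

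At 1% heptanal 0 genes of any of these lists were called by edgeR. At an unadjusted p below 0.05, Fosb was higher among the immediate early genes, beside 1.32% of all genes. Clpx, named here after its value was seen, was lower among the mitochondrial genes, beside 1.94% of all genes. In the other 7 lists 0 passed. Fosb was then at 6.49, 6.6 and 8.86 CPM, above all controls as were 2.28% of all genes, with a log2 fold change of 1.51 (adjusted p = 1 by edgeR).

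Sums of marker genes of several cell types differed with the exposure as well. Over 5 markers of mature OSNs the summed level was 4053 to 8695 CPM in the controls, 6442 to 8976 at 1% heptanal and 10592 to 14533 at 100% heptanal, and all 5 had a fitted value above 0 there (median 0.78), of which Omp was called (1.11). The 4 sustentacular markers summed to 1215 to 1443, 1384 to 1489 and 1710 to 2935 CPM. At 100% heptanal 3 of the 4 were higher at an unadjusted p below 0.05, beside 6.64% of all genes. The 5 erythroid markers summed to 1625 to 12325, 1588 to 11805 and 1051 to 7652 CPM. At 100% heptanal all 5 were lower at an unadjusted p below 0.05, beside 3.79% of all genes. The 4 globose basal cell markers summed to 80.9 to 110, 52.7 to 177 and 57.5 to 63.9 CPM, and the 3 markers of olfactory ensheathing glia to 162 to 264, 173 to 254 and 123 to 184 CPM. Both sums were lower than the control in all 3 days at 100% heptanal, at 0.711, 0.711 and 0.581 times and at 0.756, 0.785 and 0.695 times, with 1 marker of each (Neurod1 and Sox10) at an unadjusted p below 0.05. In the lists for immature OSNs, horizontal basal, microvillous, respiratory ciliated and macrophage cells 0 markers had such a p at 100% heptanal against control. At 1% heptanal 2 of the 3 immature OSN markers were higher at such a p, beside 1.32% of all genes. These were Gap43 (0.45) and Gng8 (0.49), named after their values were seen. No marker of these lists was at 0 in all mice. Within days the sustentacular sum was 1.22, 1.58 and 2.41 times the control at 100% heptanal, and the mature OSN sum was 1.99, 1.67 and 2.61 times. The erythroid sum was 0.707, 0.459 and 0.647 times. The part of these cell types in the values of Hspa1a, Dnajb1 and Hspb1 was not tested. In these bulk samples a change in the number of cells of a type, in RNA per cell and in capture by the antibody cannot be told apart.

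The scale sets the sign of the smaller changes. With TMM the median of all genes was -0.00 at 100% heptanal. Scaling each mouse to the summed counts of the 5 OSN markers moved it to -1.04. Omp made up most of that sum and was itself called higher with TMM (1.11), while Adcy3, Ano2, Gnal and Cnga2 were at 0.34, 0.57, 0.78 and 1.27. On that scale 5 members were called at 100% heptanal against control. Hspa1a was higher at 1.72, and Hspa8, Hsp90aa1, Hspe1 and Bag3 were lower. Of the 14930 genes tested 48 were called higher and 9698 lower there, so most genes share a call downwards. Dnajb1 and Hspb1 were at -0.18 and -0.27. Relative to the median gene the values were little changed: 2.75 for Hspa1a, 0.86 for Dnajb1, 0.76 for Hspb1 and 0.10 for Hspa8. Hspa1a was above 0 under each scaling that was run. A change of scale moves all genes by nearly the same amount, so this and the values relative to the median gene give no separate support.

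The genes whose pattern was closest to the mean of the 9 members, by Pearson's r of log2(CPM + 0.5) centred on postnatal day over 9 mice, were Olfr819 (0.98), Olfr509 (0.98), Olfr237-ps1 (0.97), Lrrc3b (0.97) and Olfr482 (0.97). These are the highest of 14921 values, and the mice share days and exposures, so they are a description only. In the controls Olfr819 was at no more than 3.24 CPM, Olfr237-ps1 at no more than 4.65 and Olfr509 at no more than 5.94, so these 3 rest on few reads. Of the counts of Olfr482 in the controls, 30 of 495, 12 of 457 and 29 of 1011 were unique, so its values are uncertain. Among the members, r with the mean that includes them was 0.93 for Dnajb1, 0.86 for Hspa1a, 0.74 for Hspd1 and 0.72 for Hspb1, and it was -0.15 for Bag3 and -0.47 for Hspe1.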

How the data were processed

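The authors sequenced PCR-amplified pS6-IP cDNA primed with poly-T with 50-base reads, aligned them to mm10 with Bowtie, counted on genes with BEDTools, and deposited 1 table without header per mouse. Columns were identified from their values: the deposited counts in column 2 are of uniquely mapped reads, and the last column holds estimated counts, in which the authors also shared out reads of several places by a rescue scheme. Deposited values are not normalized. Tables were joined by symbol, estimated counts rounded, and all 9 mice fitted together with edgeR 4.0.16 in R 4.3.3 (filterByExpr, TMM, quasi-likelihood test, postnatal day as a block). The methods name edgeR but no design. Same-numbered mice were littermates, and their deviations from the group means correlated at 0.166 to 0.745 over 9 pairs. No 2 mice of a group had the same counts within sampling noise.

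Standard errors are the absolute log2 fold change over the root of its test statistic. The script was tested on simulated data. Alternatives were DESeq2 1.42.0, the likelihood ratio test, other scalings, no filter, unique counts, no block, the pair summed and each mouse left out. Leaving out whole days was chosen after seeing the data. Members, lists and tests were chosen with earlier results of these data known. Named are all members and, per list, the called genes at 100% heptanal (at most 3) or else the 2 with the highest mean CPM, of which 1 gene is not reported here. Coordinates and transcripts are from GENCODE M21 (GRCm38), promoters from RefSeq. Windows of 50 bases were matched exactly to the chromosomes of GRCm38. Plots used matplotlib 3.10.9.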

Additional observations from a re-analysis of the deposited data

How the results depend on the processing

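Of 582 values of members under 22 other settings (19 set out first, 3 added after seeing the data), 535 kept their direction and stayed without a call, 16 passed the threshold in the same direction and 31 changed sign. With no replicate block 0 members were called in each comparison, and 2, 0 and 2 genes in all at 100% heptanal against control, 1% heptanal against control and 100% against 1% heptanal, where the fit with the block called 48, 0 and 12. In the same order, the likelihood ratio test called 1, 0 and 2 members and 298 (250 higher, 48 lower), 14 and 226 genes. DESeq2 called 1, 0 and 2 members and 324 (255 higher, 69 lower), 98 and 300 genes. Without a filter on low counts 76, 1 and 23 genes were called. Scaling by OSN markers called 5, 0 and 4 members, and 9746 genes (48 higher, 9698 lower) at 100% heptanal against control and 6692 at 100% against 1% heptanal. Leaving out 1 mouse at a time gave 0 to 1, 0 and 0 to 2 members, and 1 to 65, 0 and 3 to 33 genes. Without postnatal day 22, 1 member was called at 100% heptanal against either group, and without days 22, 21 and 18 in turn 8, 3 and 4 genes were called against control and 4, 0 and 7 against 1% heptanal. The few genes called after leaving out mice rest on fewer samples.

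Signs turned as follows, with values as log2 fold changes. With scaling by OSN markers at 100% heptanal against control, Hspa8 was -0.94, Hsph1 -0.45, Hspb1 -0.27, Dnajb1 -0.18, Hsp90aa1 -0.83, Hspe1 -1.0 and Hspd1 -0.70. On the same scale Hspa8 was -0.21 at 1% heptanal, and Hspa8 and Hsp90aa1 were -0.74 and -0.27 at 100% against 1% heptanal. With unique counts Hspa1a was 0.02 at 1% heptanal. Without postnatal day 22, Hsph1 was -0.13, Hsp90aa1 -0.07, Hspe1 -0.14 and Hspd1 -0.01 at 100% heptanal, and Bag3 was 0.03 at 1% heptanal. Without day 21, Hsp90aa1 was 0.03 at 1% heptanal and Hspa8 was -0.03 between the concentrations. Leaving out 1 mouse at a time moved Hsph1 between -0.27 and 1.01, Hsp90aa1 between -0.10 and 0.57 and Hspe1 between -0.09 and 0.30 at 100% heptanal against control. At 1% heptanal it moved Hspa1a between -1.15 and 0.31, Hspa8 between -0.00 and 0.08, Hsph1 between -0.99 and 0.04, Hsp90aa1 between -0.85 and 0.02 and Bag3 between -0.35 and 0.08, and between the concentrations Hspa8 between -0.03 and 0.11. The cause of these changes was not tested. With 3 mice per group, the interval of each member sets the size of change that could be seen, and at 100% heptanal against control it was widest for Hspa1a (0.96 to 4.53) and narrowest for Hspa8 (-0.19 to 0.39).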
